A study of Mus musculus with 10 samples.

Results

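The genes of the cytosolic translation initiation factors (eIF) and elongation factors (eEF) were examined for binding of SOX2 and SOX15 in mouse embryonic stem cells. Members were chosen by symbol: every protein-coding RefSeq gene whose symbol starts with Eif or Eef followed by a digit, which gave 71 of 21900 genes. Of these, 70 lie on the 20 chromosomes that carry peaks, and the remaining one, Eif2s3y, is on the Y chromosome, where no list has a peak. The family was picked on the grounds of peaks already seen in these lists at Eif4a1, Eif4a2 and Eef1a1. Counts of called members and the folds at their peaks are therefore descriptions, without a test.

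The cells carried an HA tag on the protein of interest, knocked in at the gene of SOX2 or of SOX15, and were grown in 2i/LIF, a medium that keeps embryonic stem cells in the naive state. Chromatin fixed with formaldehyde was precipitated and sequenced (ChIP-seq) in 2 SOX2 and 3 SOX15 libraries; the 5 inputs of the series were not analysed here. The strain, and whether replicates came from separate cultures or clones, are not given in the labels, so differences between them may be technical. Each ChIP library has its own list of peaks, each with a fold enrichment over background and a summit, the base of highest signal.

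Translation begins when eIF2 brings the initiator tRNA to the small ribosomal subunit, eIF3 and eIF1 help it scan, and the eIF4 proteins bind the mRNA cap and unwind the leader. In elongation, eEF1A delivers aminoacyl-tRNAs and eEF2 moves the ribosome along the message. Several of these genes, Eef1a1, Eef2 and Eif4a1 among them, are transcribed at very high levels in most cells. SOX2 and SOX15 are related HMG-box factors that bind short A/T-rich elements, and SOX2 helps to hold embryonic stem cells in the pluripotent state.

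The SOX2 lists were the longer ones, with 2676 peaks in replicate 1 and 4817 in replicate 2, while SOX15 had 217 in replicate 1, 672 in replicate 2 and 437 in replicate 3. The files hold no read counts, so depth is unknown, and signal at a gene with no peak can fall short of the calling threshold. Of 8 embryonic stem cell genes (Pou5f1, Sox2, Nanog, Esrrb, Zfp42, Klf4, Tfcp2l1 and Dppa3), each SOX2 library had a peak within 50 kb of all 8, and SOX15 replicates 1, 2 and 3 had one near 2, 3 and 5. Their expression was not measured. A longer list has more peaks near any gene, and the share of all genes with a peak within 50 kb is not given here. No difference between the factors is read from these counts.

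Promoter sequences are given for Eef1a1, Eif4a1 and Eif4a2, and for Dapk3, the neighbour of Eef2 near whose start the Eef2 peaks lie. Most peaks at the 4 genes with recurrent SOX15 peaks lie outside these sequences, and no SOX2 summit lies in any of them. The sequences are RefSeq windows of GRCm38.p6, the assembly whose coordinates mm10 uses, from 250 bases before to 50 bases after a start site. The first belongs to Eef1a1 and overlaps peaks whose summits lie just inside the gene. That of Eif4a1 holds a SOX15 summit, that of Eif4a2 ends short of the first summits, and that of Dapk3 (1 of 3 windows of this neighbour of Eef2 in the table) holds the summits assigned to Eef2. Capitals mark every match, on either strand, to 6 motifs that were searched. The SOX cores searched were ACAAAG and also ACAATG. The octamer was searched by its part ATGCAAA, held by 4.27% of all windows and by 0 of the 69. The TATA box was searched by the letters TATAAA, held by 12.7% of all windows and 4 of the 69. The remaining motifs were the CCAAT box, held by 38.5% of all windows and 20 of the 69, and the GC box, whose letters are GGGCGG.
Eef1a1, chr9:78481675-78481974, minus strand: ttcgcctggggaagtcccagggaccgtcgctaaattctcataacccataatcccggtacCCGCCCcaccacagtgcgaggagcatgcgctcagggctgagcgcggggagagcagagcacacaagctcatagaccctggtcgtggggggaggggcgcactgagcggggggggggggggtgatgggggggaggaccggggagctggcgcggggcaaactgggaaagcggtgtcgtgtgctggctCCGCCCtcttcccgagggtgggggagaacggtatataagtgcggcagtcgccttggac
Eif4a1, chr11:69672374-69672673, minus strand: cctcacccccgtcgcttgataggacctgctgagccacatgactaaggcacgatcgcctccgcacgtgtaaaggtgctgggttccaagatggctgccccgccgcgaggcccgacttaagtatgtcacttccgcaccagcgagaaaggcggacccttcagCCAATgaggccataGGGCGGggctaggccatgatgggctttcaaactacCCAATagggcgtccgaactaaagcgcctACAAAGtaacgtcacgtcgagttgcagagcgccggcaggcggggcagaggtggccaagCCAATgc
Eif4a2, chr16:23107218-23107517, plus strand: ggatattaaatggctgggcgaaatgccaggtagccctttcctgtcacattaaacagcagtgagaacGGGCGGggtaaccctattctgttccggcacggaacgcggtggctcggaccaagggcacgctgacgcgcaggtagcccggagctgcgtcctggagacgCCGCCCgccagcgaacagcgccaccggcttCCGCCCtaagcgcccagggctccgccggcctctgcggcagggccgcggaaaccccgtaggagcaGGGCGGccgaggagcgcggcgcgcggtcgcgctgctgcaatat
Dapk3, chr10:81182757-81183056, plus strand: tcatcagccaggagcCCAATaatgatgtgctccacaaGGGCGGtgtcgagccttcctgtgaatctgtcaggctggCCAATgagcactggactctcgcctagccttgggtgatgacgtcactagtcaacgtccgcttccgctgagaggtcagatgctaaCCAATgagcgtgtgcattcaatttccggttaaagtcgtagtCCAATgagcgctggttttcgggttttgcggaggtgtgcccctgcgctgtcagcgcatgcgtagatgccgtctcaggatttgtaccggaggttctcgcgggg

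The GC box occurred in each of the 4 windows printed, at positions 60 and 243 of the Eef1a1 window (counted from 1 at its 5′ end), at 173 for Eif4a1, at 67, 164, 194 and 258 for Eif4a2, and at 38 for Dapk3. It was present in 46.7% of the 21045 windows of protein-coding genes, and in 69.6% of the 69 windows that matched 54 of the translation factor genes. Some genes, such as Eif5a, Eif4enif1 and Eif4e2, supply several windows that in part overlap, so shares of windows are not shares of genes. ACAAAG occurred once, in Eif4a1 at position 236, so that its letters include base 237, the summit of SOX15 replicate 2; 16.8% of all windows and 5 of the 69 (7.25%) hold it. The other SOX core, ACAATG, was in none of the 4 windows, against 10.5% of all windows. CCAAT occurred at 3 positions in Eif4a1 and 4 in Dapk3. A match describes the letters of the window and is not evidence of a bound site. G+C content was 66.7% for Eef1a1, 60.7% for Eif4a1, 67.7% for Eif4a2 and 56.0% for Dapk3, with a median of 62.0% over the translation factor windows and 56.7% over all.

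A peak was assigned to a gene when its summit lay inside the gene or within 1 kb of it. Of the 70 genes, 13 had a peak in at least 1 of the 5 libraries (18.6%), against 10.3% of all 21631 protein-coding genes on the same chromosomes. A SOX15 peak in at least 2 of 3 libraries was found at 4 of 70 (5.71%, Wilson 95% interval 2.24 to 13.8), namely Eef1a1, Eef2, Eif4a1 and Eif4a2, against 0.749% of all genes. A SOX2 peak in both libraries was found at 7 of 70 (10.0%, interval 4.93 to 19.2), namely Eef1a1, Eif4a2, Eif4e2, Eif3e, Eef2kmt, Eif2a and Eif4ebp1, against 4.66% of all genes. Eef1a1 and Eif4a2 met both criteria, as did 0.314% of all genes. A SOX15 peak in any library was found at 6 genes (8.57% against 2.62%), in all 3 at 1 (against 0.425%), and a SOX2 peak in any library at 10 (14.3% against 8.89%). Clustered histone genes supply many of the SOX15 calls in the genome; without these 63 genes the background was 0.524% for SOX15 and 4.55% for SOX2. The intervals cover counting error alone, and the genes are not replicates. Eef1a1, Eif4a1 and Eif4a2 are the genes on whose peaks the family was picked, so their calls were known in advance. Eef2 is the one other gene with recurrent SOX15 peaks. The intervals are therefore no test against the share of all genes. The SOX15 count rests on few libraries: it was 1 gene (Eif4a2) without replicate 3, 2 genes without replicate 2 and 3 without replicate 1. A peak in both remaining libraries was then needed, which lowers the count by construction. The share of all genes under that rule is not given here.

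By library, SOX2 replicates 1 and 2 had a peak at 8 and 9 of the genes (11.4% and 12.9%), against 5.27% and 8.28% of all protein-coding genes. SOX15 replicates 1, 2 and 3 had one at 2, 4 and 5 (2.86%, 5.71% and 7.14%), against 0.619%, 1.95% and 1.23%. The member share was above the share over all genes in each library; since the family was picked on such peaks, nothing is read from this. The peaks at these genes made up 0.486% and 0.208% of the SOX2 lists, and 0.922%, 1.34% and 1.37% of the SOX15 lists. Groups of 2 and 3 libraries cannot give an exact permutation p below 0.1, so the libraries were not tested against each other.

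**Figure D1:**
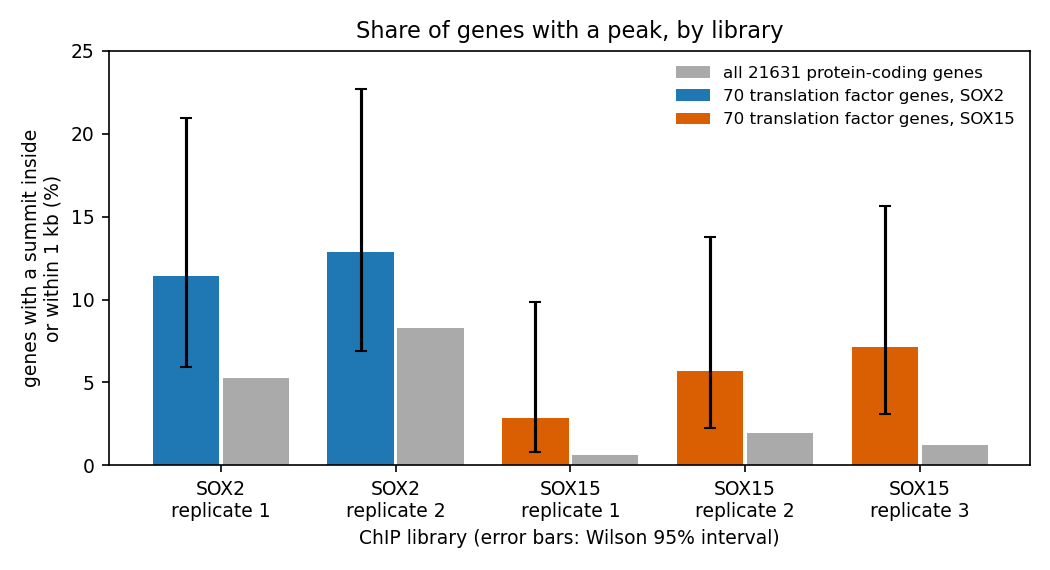
Percent of the translation factor genes (blue for SOX2, orange for SOX15; error bars are Wilson 95% intervals) and of all protein-coding genes (grey) with a summit inside or within 1 kb, per ChIP library. The coloured bar is taller than the grey one in all 5 libraries, from 2.86% against 0.619% in SOX15 replicate 1 to 12.9% against 8.28% in SOX2 replicate 2.

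Genes with a peak were found in 7 of the 9 groups into which the family was divided by role. The cap-binding, helicase and scaffold group of eIF4 had a peak at 4 of 13 genes. Elongation factors had one at 2 of 7, with Eef1e1 grouped there by its symbol. For eIF2 with its exchange factor and related initiator tRNA factors it was 3 of 11 (the 11 include Eif2s3y, on the Y chromosome). One gene each was called among the 14 eIF3 subunits and the 5 genes with an eIF1 or eIF1A type symbol, Eif1ad included. The same held for the 4 eIF4E-binding regulators and the 8 elongation factor kinase and methyltransferase genes. None of the 4 eIF2 kinases or the 5 genes of eIF5, eIF5A, eIF5B and eIF6 had one. Groups of this size hold few genes with a peak at the share of 18.6% over the family or 10.3% over all genes, so no difference between the groups is read from these counts. Recurrent SOX15 peaks were found in the eIF4 group (Eif4a1 and Eif4a2) and among the elongation factors (Eef1a1 and Eef2).

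**Figure D2:**
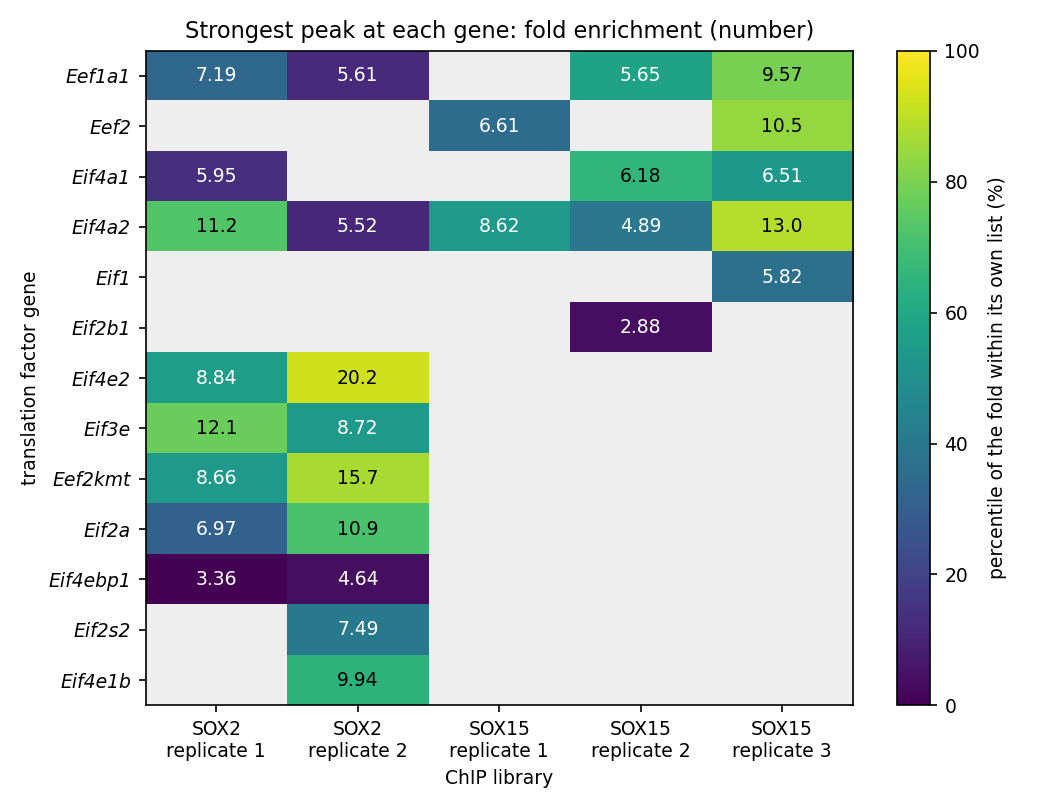
Fold enrichment of the strongest peak at each of the 13 genes with a peak (rows) in each ChIP library (columns); colour gives the percentile of that fold within its own list and grey means no peak. The upper 6 rows hold all SOX15 peaks, and the lower 7 rows hold SOX2 peaks alone.

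Eef1a1, which encodes the main eEF1A of proliferating cells, had a peak at its start in 4 of the 5 libraries (region on chromosome 9, 78481302 to 78481755; gene 78478453 to 78481724, minus strand). The authors' fold was 7.19 and 5.61 in SOX2 replicates 1 and 2, and 4.94 and 9.57 in SOX15 replicates 2 and 3; SOX15 replicate 1 had none. The 4 summits lay 112, 222, 152 and 78 bp inside the gene, in that order, so both factors were called on the same stretch. Within their own lists these folds were ordinary or low for SOX2 (percentiles 33.4 and 12) while those of SOX15 replicates 2 and 3 were at 41.1 and 79.6. By the −log10 of q the same peaks were at 30.7 and 4.98 for SOX2, and at 5.06 and 77.1 for SOX15. The replicate 2 call of each factor was thus among the least significant of its list. SOX15 replicate 2 had a further peak 675 bp inside the gene, with a fold of 5.65.

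Stronger peaks followed downstream of Eef1a1, beyond the 1 kb limit. In the 10 kb past its 3′ end, SOX2 replicates 1 and 2 had 3 peaks and 1, and SOX15 replicates 1, 2 and 3 had 2, 5 and 3. All 5 libraries had a summit between 1597 and 1919 bp past the end, and the farthest lay 4744 bp past it. The strongest folds there were 8.71 and 6.02 for SOX2, and 13.5, 9.31 and 12.3 for SOX15, each above the fold of the same library at the start of the gene where it had one. The broadest was in SOX15 replicate 1, 2308 bp wide, with its summit inside Mto1, a gene on the opposite strand whose 3′ end faces that of Eef1a1. With a 5 kb limit Eef1a1 would count as called in all 3 SOX15 libraries.

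Eif4a2 was the one gene with a peak in all 5 libraries. It encodes a DEAD-box helicase of the eIF4A type (chromosome 16, 23107468 to 23114132, plus strand). Peaks stood at both of its ends. Near the start (region 23107610 to 23108609) the folds were 7.19 and 5.52 in SOX2 replicates 1 and 2, and 4.88 and 5.86 in SOX15 replicates 2 and 3, with none in SOX15 replicate 1. These folds were at the percentiles 33.4, 11.1, 39.4 and 37.4 of their lists, in that order. By −log10 q the same peaks were at 30.7, 7.0, 9.82 and 56.8. The summits of the strongest SOX2 peaks and of SOX15 replicate 3 lay 392, 319 and 282 bp after the start, and that of SOX15 replicate 2 lay 825 bp after it. No peak overlapped the promoter window printed above.

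At the 3′ end of Eif4a2 (region 23113909 to 23115189) the folds were 8.62, 4.89 and 13.02 in SOX15 replicates 1, 2 and 3 (percentiles 53.9, 39.7 and 89.0 of their lists) and 11.2 in SOX2 replicate 1. SOX2 replicate 2, the longer SOX2 list, had no peak there. The strongest summits of the 4 libraries lay 576, 630, 574 and 546 bp past the annotated end, within 84 bp of one another. This position is also inside Rfc4, a gene for a subunit of the clamp loader of DNA replication, whose own 3′ end overlaps that of Eif4a2 on the opposite strand. The signal cannot be assigned to one of the pair. In SOX15 replicate 3 the peak was 1281 bp wide. SOX2 replicate 1 had 2 more peaks in the gene body, with folds of 5.18 and 6.54, near the snoRNA gene Snord2.

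Eif4a1, the paralogue with the main helicase of cap-dependent initiation (chromosome 11, 69666936 to 69672423, minus strand), had its shared peak at the start (region 69671956 to 69672472). The fold was 5.95 in SOX2 replicate 1, and 4.96 and 6.51 in SOX15 replicates 2 and 3. These folds were at the percentiles 14.0, 41.4 and 53.2 of their lists, in that order. By −log10 q the same peaks were at 11.6, 15.2 and 55.8. SOX2 replicate 2 and SOX15 replicate 1 had no peak at the gene. The summit of SOX15 replicate 2 lay 14 bp before the start, within the printed window, and those of SOX15 replicate 3 and SOX2 replicate 1 lay 77 and 154 bp after it. SOX15 replicate 2 added a peak 814 bp after the start (fold 6.18) and one 635 bp past the 3′ end (fold 4.54), the latter 131 bp before the start of Cd68.

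Eef2, the gene of the translocase, had another arrangement (chromosome 10, 81176631 to 81182509, plus strand). It had no SOX2 peak and no peak at its own start. The folds were 6.61 and 10.5 in SOX15 replicates 1 and 3, with summits 475 and 393 bp past its 3′ end. These lie 3 and 85 bp before the annotated start of Dapk3, a kinase gene transcribed in the same direction, and at bases 228 and 146 of the Dapk3 window printed above. Dapk3 was nearer than Eef2 in both cases, so Eef2 drops out when each peak goes to the nearest gene alone, and 3 genes remain.

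**Figure D3:**
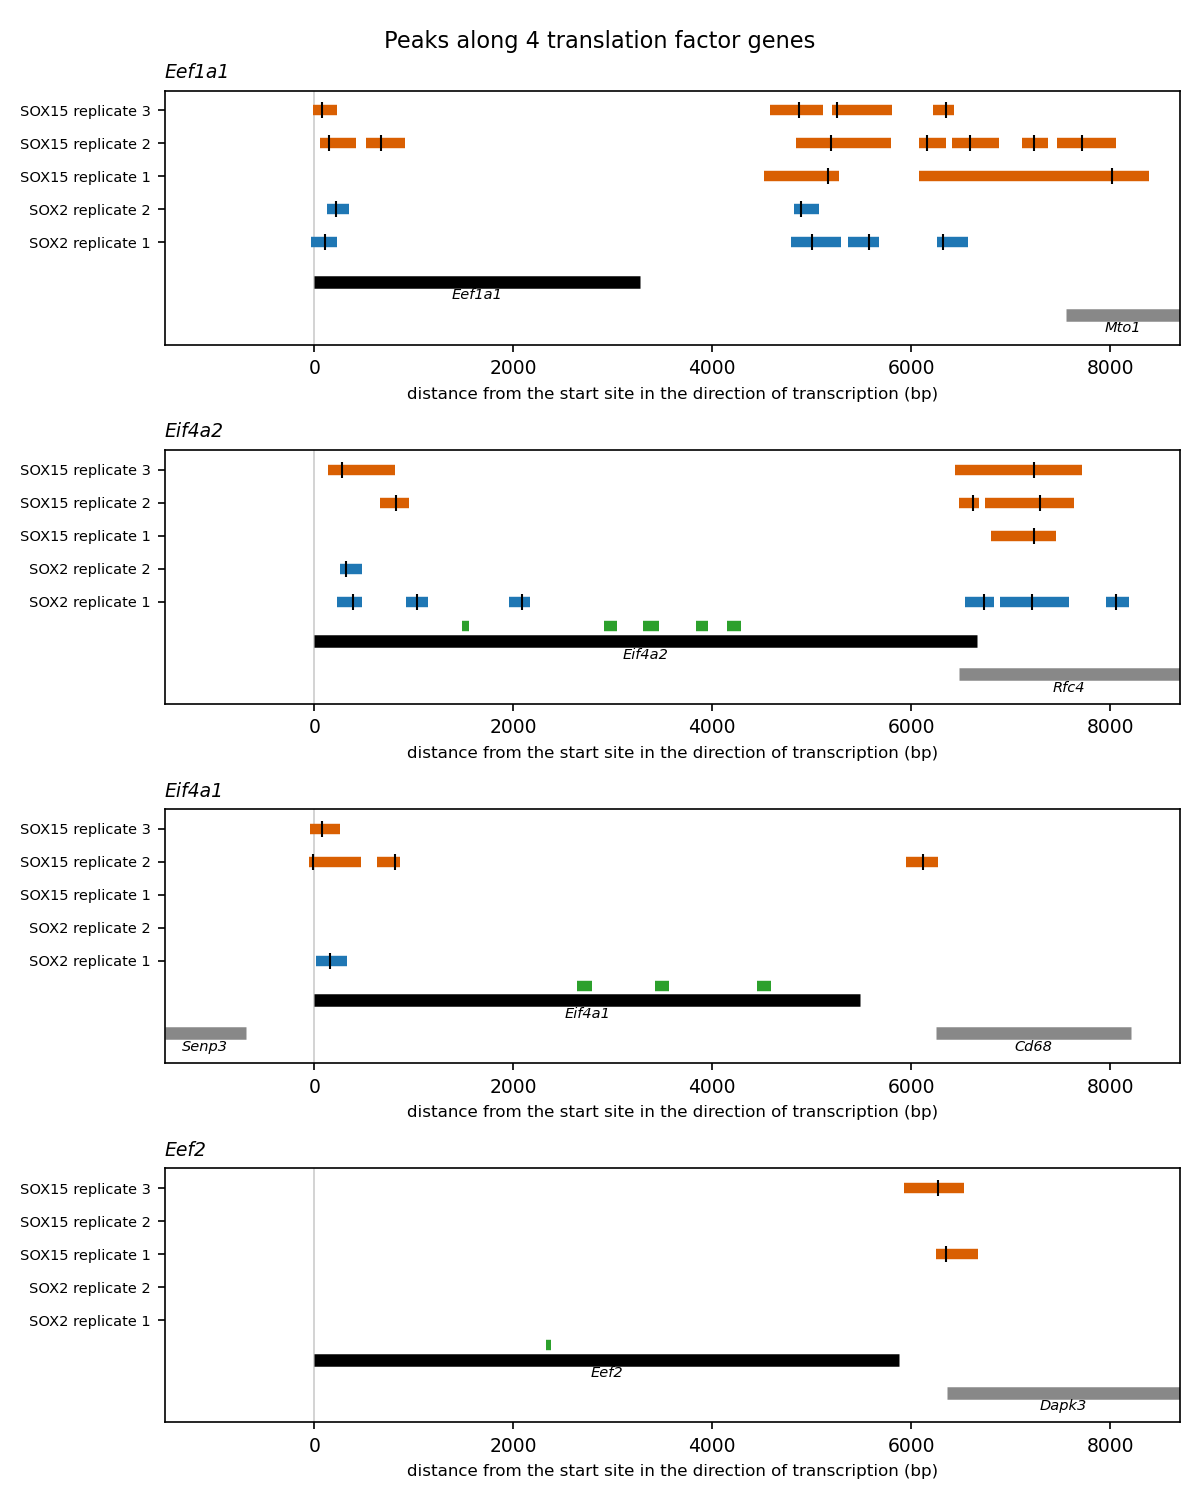
Peaks of the 5 ChIP libraries (blue for SOX2, orange for SOX15; the tick is the summit) along Eef1a1, Eif4a2, Eif4a1 and Eef2, plotted as distance in bp from the start site in the direction of transcription. Black bars are the translation factor gene, grey bars neighbouring protein-coding genes and green bars snoRNA genes; peaks gather at the start and past the 3′ end and most of each gene body holds none.

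Single SOX15 libraries called 2 more genes. Eif1, whose product monitors start codon choice, had a peak in SOX15 replicate 3 alone, 796 bp past its 3′ end, with a fold of 5.82 (chromosome 11, 100322721 to 100322929). Eif2b1, for the alpha subunit of the eIF2 exchange factor, had one in SOX15 replicate 2 alone, 597 bp before its 3′ end (chromosome 5, 124570730 to 124570989). Its fold of 2.88 was at the percentile 3.87 of the list, while its −log10 q of 20.7 was at the percentile 72.2.

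The 17 SOX15 summits at these genes all lay no more than 1 kb from an end of the gene, 8 at the start and 9 at the 3′ end. Over all protein-coding genes with a known strand, 22.2%, 51.7% and 35.7% of the assignments of SOX15 replicates 1, 2 and 3 fell in the body, and 43.0%, 63.3% and 46.3% without the clustered histone genes. The 6 translation factor genes concerned are short, and over all genes of up to 10 kb the body held 4.90%, 7.28% and 5.6% (19.2%, 14.7% and 10.9% without the histone genes), so a place near an end was the usual one for genes of this length. Of the 23 SOX2 peaks, 11 lay in the body, 5 at the start and 2 at the 3′ end. The other 5 were at genes whose strand was not given (Eif3e, Eif4e1b and Eif4ebp1). Those at Eif3e and Eif4ebp1 also lay in the body, over 1 kb from either gene end. Among translation factor genes with a known strand, the body held 54.5% and 71.4% of the assignments of SOX2 replicates 1 and 2. Over all genes with a known strand it held 81.1% and 88.3%. Over those of up to 10 kb it held 17.8% and 25.4% (31.3% and 33.3% without the histone genes). The SOX2 peaks at a start or 3′ end were at genes of that length (Eef1a1, Eif4a1 and Eif4a2). The 2 SOX2 summits at a 3′ end, both in replicate 1, were at Eif4a2. Counting such end positions alone, 4 genes had recurrent SOX15 peaks (0.582% of all genes) and 2, Eef1a1 and Eif4a2, had SOX2 in both libraries (0.67%).

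In 5 genes both SOX2 libraries had a peak and no SOX15 library did, and these peaks lay inside the gene. That is 7.14% of the 70 genes, against 3.91% of all protein-coding genes. Lacking a SOX15 peak was the common case among genes with SOX2 in both libraries, at 5 of 7 here and 845 of 1008 (83.8%) over all. At Eif4e2, for the cap-binding repressor also called 4EHP, the folds were 8.84 and 20.2 in SOX2 replicates 1 and 2 (chromosome 1, 87226308 to 87226953). The summits were 12664 and 12681 bp after the start, and a second region in the gene had folds of 6.46 and 7.74. In replicate 2 the first ranked 340 of 4817 peaks, the highest percentile (93.0) among the peaks at translation factor genes.

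Eif3e, for a subunit of eIF3, had folds of 12.1 and 8.72 in SOX2 replicates 1 and 2 (chromosome 15, 43259955 to 43260447), with summits over 10 kb from either gene end. Eef2kmt, for a methyltransferase that modifies eEF2, had 8.66 and 15.7 (chromosome 16, 5252262 to 5252628). Eif2a, for a monomeric initiator tRNA factor, had 6.97 and 10.9 (chromosome 3, 58536585 to 58536964). Eif4ebp1, for the 4E-BP1 repressor that mTOR controls, had the weakest peak, 3.36 and 4.64 (chromosome 8, 27262498 to 27262792), at the percentiles 0.168 and 3.77. The summits of the 2 SOX2 libraries lay 59, 38, 8 and 67 bp apart at Eif3e, Eef2kmt, Eif2a and Eif4ebp1. The gene models used hold no exons, so the positions are given as inside the gene.

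No SOX15 library had a peak at these 5 genes. The nearest SOX15 peak was 15948 bp from the region in Eif4ebp1, in replicate 3, and at least 694103 bp from those of the other 4 genes. The SOX15 lists hold only 217, 672 and 437 peaks, and distances at other genes are not given. Nothing is therefore read from these distances. SOX2 replicate 2 alone called Eif2s2, for the beta subunit of eIF2 (fold 7.49), and Eif4e1b, a cap-binding paralogue of oocytes (fold 9.94, 603 bp outside the gene). In replicate 2, the start peaks of Eef1a1 and Eif4a2 were at the percentiles 12 and 11.1, under Eif4e2, Eef2kmt, Eif2a and Eif3e (53.6 to 93.0). They were above Eif4ebp1 (3.77). In replicate 1 the same start peaks were both at 33.4, under Eef2kmt, Eif4e2 and Eif3e (54.3, 55.7 and 77.2). There they were above Eif2a and Eif4ebp1 (31.0 and 0.168). The 3′ end peak of Eif4a2 in SOX2 replicate 1 was at 73.0, under Eif3e alone among these 5 genes.

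The 6 genes with any SOX15 peak were 2151 to 8918 bp long, and the 5 with SOX2 in both libraries and no SOX15 were 11802 to 32697 bp long. Eif4e1b, with SOX2 in replicate 2 alone, is 4466 bp long and lies within the range of the SOX15 genes. The median was 15294 bp over the 70 genes and 17329 bp over all protein-coding genes. Among genes of up to 10 kb, 4 of 23 translation factor genes (17.4%) and 1.12% of all had recurrent SOX15 peaks. Those 4 include Eef1a1, Eif4a1 and Eif4a2, on whose peaks the family was picked. From 10 to 50 kb, recurrent SOX15 peaks were at 0 of 38 against 0.525%. For SOX2 in both libraries the shares were 2 of 23 (8.7%) against 1.07%, and 5 of 38 (13.2%) against 2.88%. With any peak they were 7 of 23 (30.4%) against 3.62%, and 6 of 38 (15.8%) against 7.06%. The 2 short genes with SOX2 in both libraries were Eef1a1 and Eif4a2. The 7 short genes with any peak included Eef1a1, Eif4a1 and Eif4a2. Both shares of short genes therefore rest, wholly or in part, on peaks known in advance, and nothing is read from them. The 9 genes over 50 kb had no peak in the 5 libraries, while 26.8% of all genes that long had one. Of the 23 short genes 16 had none, among them Eif5a, Eef1b2, Eif3f, Eif5 and Eif6.

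**Figure D4:**
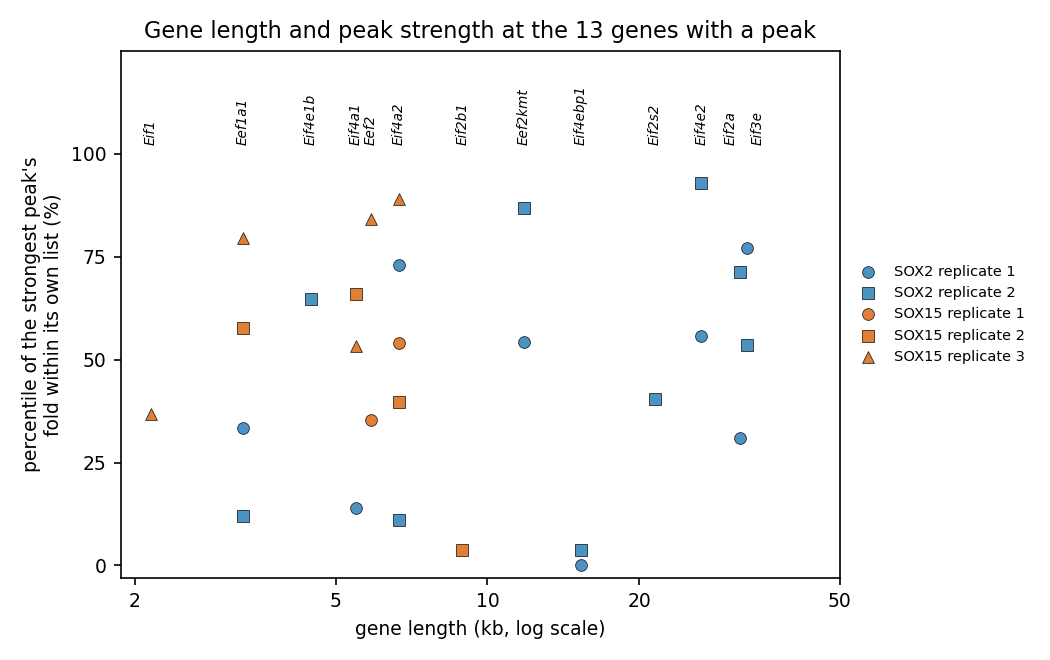
Gene length (kb, log scale) of the 13 genes with a peak against the percentile of the strongest peak's fold within its own list, 1 point per gene and library (blue SOX2, orange SOX15; the shape gives the replicate). The orange points run from 2151 to 8918 bp, and the blue points from 3272 to 32697 bp.

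Genes for small nucleolar RNAs lie inside several of these genes. A snRNA or snoRNA gene lay inside or within 1 kb of 10 of the 70 genes (14.3%), against 3.34% of all protein-coding genes. Of the 4 genes with recurrent SOX15 peaks 3 had one: Eif4a2 with 5, Eif4a1 with 3 and Eef2 with 1; Eef1a1 had none. The remaining 7 hosts, such as Eif5 with Snora28 and Eef1b2 with Snora41, had no peak. Leaving out peaks within 1 kb of such a gene left each count of called genes as it was, with 4 for SOX15 and 7 for SOX2. The peaks so removed were all at Eif4a2, in SOX2 replicate 1 and SOX15 replicate 2. Both libraries have other peaks at that gene, so no count could change. None of the 15 further entries of the table with an Eif or Eef symbol that are not protein-coding had a peak.

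Other genes of protein synthesis were counted in the same way. Of 91 cytosolic ribosomal protein genes 4 (4.4%) had recurrent SOX15 peaks (Rpl3, Rpl31, Rpl36 and Rps18) and 0 had SOX2 in both libraries. Of 22 aminoacyl-tRNA synthetase and scaffold genes, Yars had recurrent SOX15 peaks, and Dars and Sars had SOX2 in both. Of 21 termination factors and other partners of translation 0 had recurrent SOX15 peaks and Igf2bp1 had SOX2 in both; of 10 mitochondrial translation factors 0 had either. Of 18 housekeeping and chaperone genes 3 had recurrent SOX15 peaks (Actb, Gapdh and Polr2a) and 3 had SOX2 in both (Ncl, Polr2a and Tubb5). These shares stand beside 0.749% and 4.66% of all protein-coding genes, and differences between the lists were not tested.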

How the data were processed

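Peak lists of 5 ChIP libraries in the narrowPeak layout were used, 1 per library. Per the submitters' processing notes, Bowtie2, MACS2, deepTools and the build mm10 were used; versions, settings and whether inputs served in calling are not given in the sources used here. For each peak the authors deposited the fold enrichment, a linear ratio, together with the −log10 of its p and of its q, a summit offset, and a score; in all 5 lists the score is 10 times that −log10 q without its decimals. Folds are comparable only within a list, so each is read by its percentile there (ties averaged). The smallest −log10 q was 2.10 and 2.20 for SOX2, and 2.76, 2.03 and 1.31 for SOX15 replicates 1, 2 and 3.

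Gene positions are those of RefSeq on GRCm38.p6. Strand came from the RefSeq promoter table, which matched 54 of the 70 genes; the other gene models have no strand here. Assignment of summits was tested on simulated positions. Regions are peaks of any library that overlap by at least 1 bp. Every gene with a peak is named. The members and lists were chosen with earlier results of these data known. Alternatives were other distances, peak overlap in place of the summit, stricter thresholds, no peaks at small RNA genes, the nearest gene alone, and leaving out each library; removal of histone genes from the background and the body share over genes of up to 10 kb were added after seeing the data. Scripts ran under Python 3.11.15 with matplotlib 3.10.9, scipy 1.17.1, pandas 2.3.3 and numpy 2.4.6.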

Additional observations from a re-analysis of the deposited data

How the results depend on the processing

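Counts of called genes within 1.5 times the reported one were taken as unchanged. Apart from the SOX15 and SOX2 counts at gene ends given above, the share of all protein-coding genes under each alternative is not given. Whether the translation factor genes moved more or less than all genes is therefore not read from these counts. With gene bodies left out (summit within 1 kb of a gene end), genes with SOX2 in both libraries went from 7 to 2 and genes with any peak from 13 to 7, since the SOX2 sites in Eif4e2, Eif3e, Eef2kmt, Eif2a, Eif2s2 and Eif4ebp1 lie over 1 kb inside the gene; the SOX15 count stayed at 4. Leaving out each library in turn gave 1 to 4 genes with recurrent SOX15 peaks, 7 to 9 with SOX2, 1 to 3 with both and 11 to 13 with any peak. The lowest SOX15 count, 1, was without SOX15 replicate 3 and the next, 2, without SOX15 replicate 2; both also left 1 gene (Eif4a2) with both factors. SOX15 then needs both remaining libraries, which lowers the count by construction. Without 1 SOX2 library, a SOX2 peak in the other is enough, so the SOX2 count cannot fall. The ranges for SOX15 and SOX2 are therefore not alike and do not compare their stability. The other alternatives kept all 4 counts within that limit: with the summit inside the gene only, 3 SOX15 genes remained (Eef2 was lost), and with a fold of at least 5, SOX2 fell to 6 (Eif4ebp1 was lost). Regions shared by SOX2 and SOX15 numbered 4, and 3 with a reciprocal overlap of 50%. Taking the peak nearest a gene end in place of the strongest changed the fold in 7 of 28 pairs of gene and library, by over 1.5 times in 3. No paired analysis was possible because the results are counts of called genes from separate lists, with no test to block. Depth is unknown, so a gene without a peak is not shown to be unbound.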

Other observations

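Summits between 1 and 5 kb outside a translation factor gene lay mostly past Eef1a1. Apart from the peaks past Eef1a1 described above, they comprised a peak of SOX2 replicate 1 that lay 1394 bp past Eif4a2 (fold 6.20), one of SOX2 replicate 2 at 2659 bp from Eif3d (fold 5.62), and peaks near Eif4ebp1 and Eif2s2. Near Eif4ebp1, SOX15 replicate 3 had a summit 2937 bp outside the gene (fold 5.97) and SOX2 replicate 1 had one at 3897 bp (fold 6.66). Near Eif2s2, SOX15 replicate 3 had one at 4005 bp (fold 6.49). The farthest summits inside the limit were those of Eif1 (796 bp), Eif4a1 (635 bp), Eif4a2 (630 bp) and Eif4e1b (603 bp).

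Some folds at these genes were shared exactly with other peaks of the same list. In SOX2 replicate 1, the start peaks of Eef1a1 and Eif4a2 had the same fold (7.19) and −log10 q (9.57), and 8 peaks of that list carried this fold. In SOX2 replicate 2 the fold of 5.52 at Eif4a2 was that of 29 peaks.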
